A study of Mus musculus with 6 samples.

Results

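Wnt ligands, their receptors and the secreted proteins that modulate them were examined in mouse colon tumours induced by azoxymethane and dextran sulfate sodium. The members were all genes of the count tables named Wnt, Fzd, Sfrp, Dkk or Rspo with a number, together with Wif1, Lrp5, Lrp6, Ror1, Ror2, Ryk, Porcn, Wls and Frzb. They numbered 51 of 26214 features, of which 47 had at least 1 read and 40 had enough reads to be tested. The groups were tumours of Trim21 -/- mice (KO, 3 libraries) and tumours of Trim21 +/+ mice (WT, 3 libraries). All of these animals had received azoxymethane, a carcinogen, and dextran sulfate sodium, which injures the colon lining. Strain, age and the kind of knockout allele were not given in the sources used here, nor whether each sample came from 1 animal. The sample titles call all 6 biological replicates. The p-values reflect only how far these 6 samples differ.

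Wnt proteins are lipid-modified signals that act over short distances. Porcn attaches the lipid and Wls carries the finished ligand to the cell surface. Ligands bind Frizzled receptors together with Lrp5 or Lrp6 to stabilise beta-catenin, the branch that maintains stem cells at the base of intestinal crypts, whereas Wnt5a-type ligands also use Ror1, Ror2 and Ryk. R-spondins strengthen the signal by removing the ubiquitin ligases Znrf3 and Rnf43 from the surface. Sfrp proteins, Frzb and Wif1 bind ligands outside the cell, and most Dickkopf (Dkk) proteins bind the Lrp co-receptors. In the normal gut many of the ligands and modulators come from stromal cells under the epithelium.

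Of the 40 members tested, 4 had an unadjusted p under 0.05, namely Wif1, which was lower in KO tumours, and Ror1, Wnt2b and Fzd5, which were higher. That share is close to the 10.7% of all 16281 tested genes with such a p, and 0 of them passed edgeR's adjusted threshold. The bases before their transcription starts are printed here because these members had the smallest p-values. They were read from RefSeq on GRCm38.p6, the assembly that mm10 denotes, on the strand of the gene. Each run holds the 250 bases before the start that RefSeq gives. The gene spans given further on are from GENCODE M21, whose starts differ, so 212 bases of the Wnt2b window, 44 of the Wif1 window, 1 of the Fzd5 window and 0 of the Ror1 window lie inside the GENCODE gene. Capitals mark the GC box GGGCGG, a site known to bind Sp-family factors, on either strand, and the Tcf/Lef site of beta-catenin signalling, searched as CTTTGAA and CTTTGAT on either strand.
Wif1, chr10:121033754-121034003, plus strand: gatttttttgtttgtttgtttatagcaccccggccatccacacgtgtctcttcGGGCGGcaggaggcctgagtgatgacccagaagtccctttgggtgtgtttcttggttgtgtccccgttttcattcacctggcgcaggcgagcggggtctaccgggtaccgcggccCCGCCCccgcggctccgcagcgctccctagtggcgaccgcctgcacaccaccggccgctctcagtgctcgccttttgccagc
Ror1, chr4:100095541-100095790, plus strand: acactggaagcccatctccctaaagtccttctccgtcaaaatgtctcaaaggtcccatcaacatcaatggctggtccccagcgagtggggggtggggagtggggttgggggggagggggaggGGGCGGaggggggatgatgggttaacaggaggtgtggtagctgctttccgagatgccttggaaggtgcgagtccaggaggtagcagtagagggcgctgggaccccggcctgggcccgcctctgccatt
Wnt2b, chr3:104961710-104961959, minus strand: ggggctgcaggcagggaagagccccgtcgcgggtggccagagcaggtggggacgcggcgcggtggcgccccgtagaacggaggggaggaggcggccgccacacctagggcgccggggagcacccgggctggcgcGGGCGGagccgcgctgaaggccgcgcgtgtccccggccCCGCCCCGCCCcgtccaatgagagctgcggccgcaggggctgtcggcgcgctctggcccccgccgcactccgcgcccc
Fzd5, chr1:64737751-64738000, minus strand: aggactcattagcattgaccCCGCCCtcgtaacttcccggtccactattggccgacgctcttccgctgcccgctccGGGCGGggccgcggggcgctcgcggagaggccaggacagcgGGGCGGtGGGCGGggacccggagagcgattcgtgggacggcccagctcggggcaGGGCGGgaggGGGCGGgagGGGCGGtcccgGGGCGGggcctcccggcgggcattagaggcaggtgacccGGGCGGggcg

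The GC box occurred 2 times in the Wif1 window, 1 time for Ror1, 3 times for Wnt2b, where 2 matches overlap, and 9 times for Fzd5. None of these 4 windows held the searched Tcf/Lef letters, which says only that they are not in this stretch. Among 32851 RefSeq windows of the same length, 32.7% held the GC box and 7.48% the Tcf/Lef letters. CG steps, the bases at which DNA is methylated, numbered 21, 8, 36 and 32 in the Wif1, Ror1, Wnt2b and Fzd5 windows, against a median of 6 over all windows. Over all members with a window, 33 genes with 36 windows, 27 windows held the GC box and 3 the Tcf/Lef letters.

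Library totals were 17937821 to 19987295 reads in KO tumours and 27085599 to 29742757 reads in WT tumours, and between 42 and 45 members had a read in each library. Levels are given as CPM, read counts relative to the scaled library total, and levels of different genes are compared only as CPM per kilobase of exon. Trim21 itself had 244, 345 and 248 reads in KO tumours and 887, 601 and 527 reads in WT tumours, and the WT libraries were the deeper ones. At 12.1, 18.9 and 12.8 CPM in KO tumours and 29.8, 20.3 and 19.5 CPM in WT tumours, every KO value lay below every WT value, KO replicate 2 only just (log2 fold change −0.67, adjusted p = 0.418 by edgeR). The epithelial markers, such as Epcam at 1297 to 1422 CPM in KO tumours and 1315 to 1486 CPM in WT tumours, were high in every library. Fewer cells of a type and less RNA per cell cannot be told apart in such bulk tumour RNA.

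By edgeR's quasi-likelihood test with Benjamini-Hochberg adjustment over all 16281 genes tested, 0 of the 40 members were called at an adjusted p under 0.05, where 0% of all genes were called (1750 of all genes had an unadjusted p under 0.05). The smallest adjusted p among members was 0.322, for Ror1. DESeq2 called 2 members, Ror1 and Wif1, against 2.06% of the genes it gave an adjusted p, and limma-voom called 0. At an unadjusted p under 0.05, edgeR found 3 members higher and 1 lower in KO tumours, where 6.63% of all genes were higher and 4.12% lower. Every KO value lay above every WT value for 5 tested members (Ror1, Wnt2b, Wnt5b, Fzd5 and Fzd8) and below for 1 (Wif1), where 9.43% and 8.47% of all genes did so, 17.9% together. For both directions together, the members' shares at an unadjusted p under 0.05 and without overlap were near those of all genes. Members wholly lower, 1 of 40, were fewer than the share of all genes. The 2 calls by DESeq2 were too few to compare with its background share. The median log2 fold change was 0.12 over the 40 members and −0.01 over all genes tested.

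**Figure D1:**
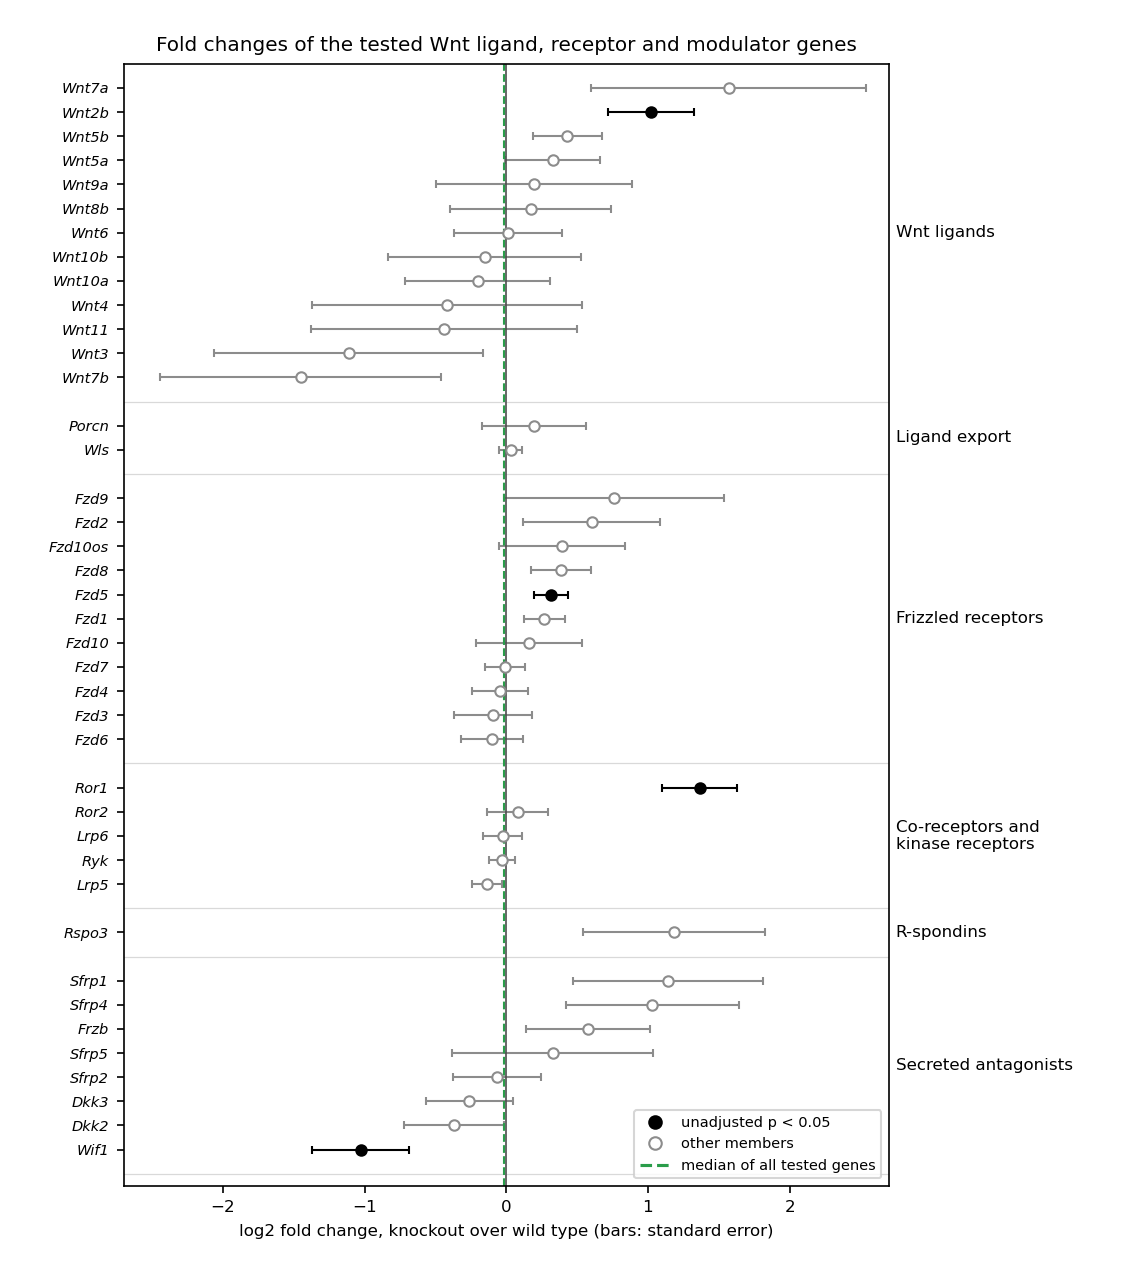
The plot gives the log2 fold change (KO over WT) of each of the 40 tested members, grouped by role, with its standard error as the bar. Filled points mark the 4 members with an unadjusted p under 0.05, and the dashed line marks the median of all tested genes, at −0.01. Wif1 lies farthest left among the filled points, at −1.03, and Ror1 farthest right, at 1.36.

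Among the members, Wif1 and Dkk3, both listed here with the secreted antagonists, had the highest levels per kilobase. Whether Dkk3 acts as an antagonist was not tested. Wif1, a secreted protein that captures Wnt ligands, averaged 186 CPM per kilobase over the 6 libraries and ranked 181 of 15760 tested genes with a known exon length. It spans bases 121033960 to 121100650 of chromosome 10 (mm10, plus strand). Wif1 measured 307, 327 and 259 CPM in KO tumours and 988, 384 and 449 CPM in WT tumours. KO tumours lay close together and all below the WT tumours, among which replicate 1 stood high. The means were 298 ± 35.3 CPM in KO tumours and 607 ± 332 CPM in WT tumours (SD, n = 3 each). The log2 fold change was −1.03 ± 0.34 (SE; edgeR, unadjusted p = 0.0196, adjusted p = 0.397), and it was −0.48 without WT replicate 1 (unadjusted p = 0.00854). The unadjusted p was 0.0521 without KO replicate 1 and 0.0666 without KO replicate 3. DESeq2 gave −1.02 with an adjusted p of 0.0495. Wif1 alone supplied 15.0% to 19.3% of all member reads in KO libraries and 22.0% to 41.3% in WT libraries.

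Dkk3, a divergent Dickkopf protein, came second per kilobase, at 49.0 on average. It measured 148, 177 and 125 CPM in KO tumours and 272, 149.6 and 116 CPM in WT tumours, and the groups overlapped (log2 fold change −0.26, standard error 0.30, edgeR adjusted p = 0.77). As for Wif1, WT replicate 1 was the highest library, and without it the log2 fold change of Dkk3 turned to 0.17. Dkk2, an antagonist that binds Lrp5 and Lrp6, measured 27.2, 71.3 and 42.6 CPM in KO tumours and 79.9, 52.0 and 50.2 CPM in WT tumours. Again WT replicate 1 was highest and the groups overlapped (log2 fold change −0.37, standard error 0.35, adjusted p = 0.716). For Dkk2 the fold change on this scale was −0.08 without KO replicate 1, −0.12 without WT replicate 1 and −0.80 without KO replicate 2.

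Sfrp1, a secreted decoy for Wnt ligands, stood at 19.1 CPM per kilobase. It measured 103, 89.0 and 154 CPM in KO tumours and 17.7, 114 and 24.4 CPM in WT tumours. WT replicate 2 thus lay inside the KO range, and the other two WT libraries lay far below it. The log2 fold change was 1.14 ± 0.67 (SE; edgeR adjusted p = 0.557). Without WT replicate 2 it was 2.45 (unadjusted p = 0.000115, adjusted p = 0.129). It was 0.73 without WT replicate 1 (unadjusted p = 0.258) and 0.80 without WT replicate 3 (unadjusted p = 0.292). Sfrp1, Dkk2, Wnt3, Wnt10a and Ror2 are described in full by choice after their values were seen, not by a rule.

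The remaining antagonists were lower in level. Frzb, also a soluble Wnt-binding protein, measured 4.63 to 18.4 CPM over the 6 libraries, and Sfrp2 measured 2.74 to 4.60 CPM. Sfrp4 measured 1.10 to 2.13 CPM in KO tumours and 0.268 to 1.39 CPM in WT tumours, and Sfrp5 measured 0.339 to 1.84 CPM over all libraries. In each of these 4 genes the groups overlapped and the unadjusted p was at least 0.134. Dkk4 had 2 reads in all, both in WT replicate 1, and Dkk1 had 0 reads, which allows up to 0.0208 CPM over the pooled libraries as counting error alone.

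**Figure D2:**
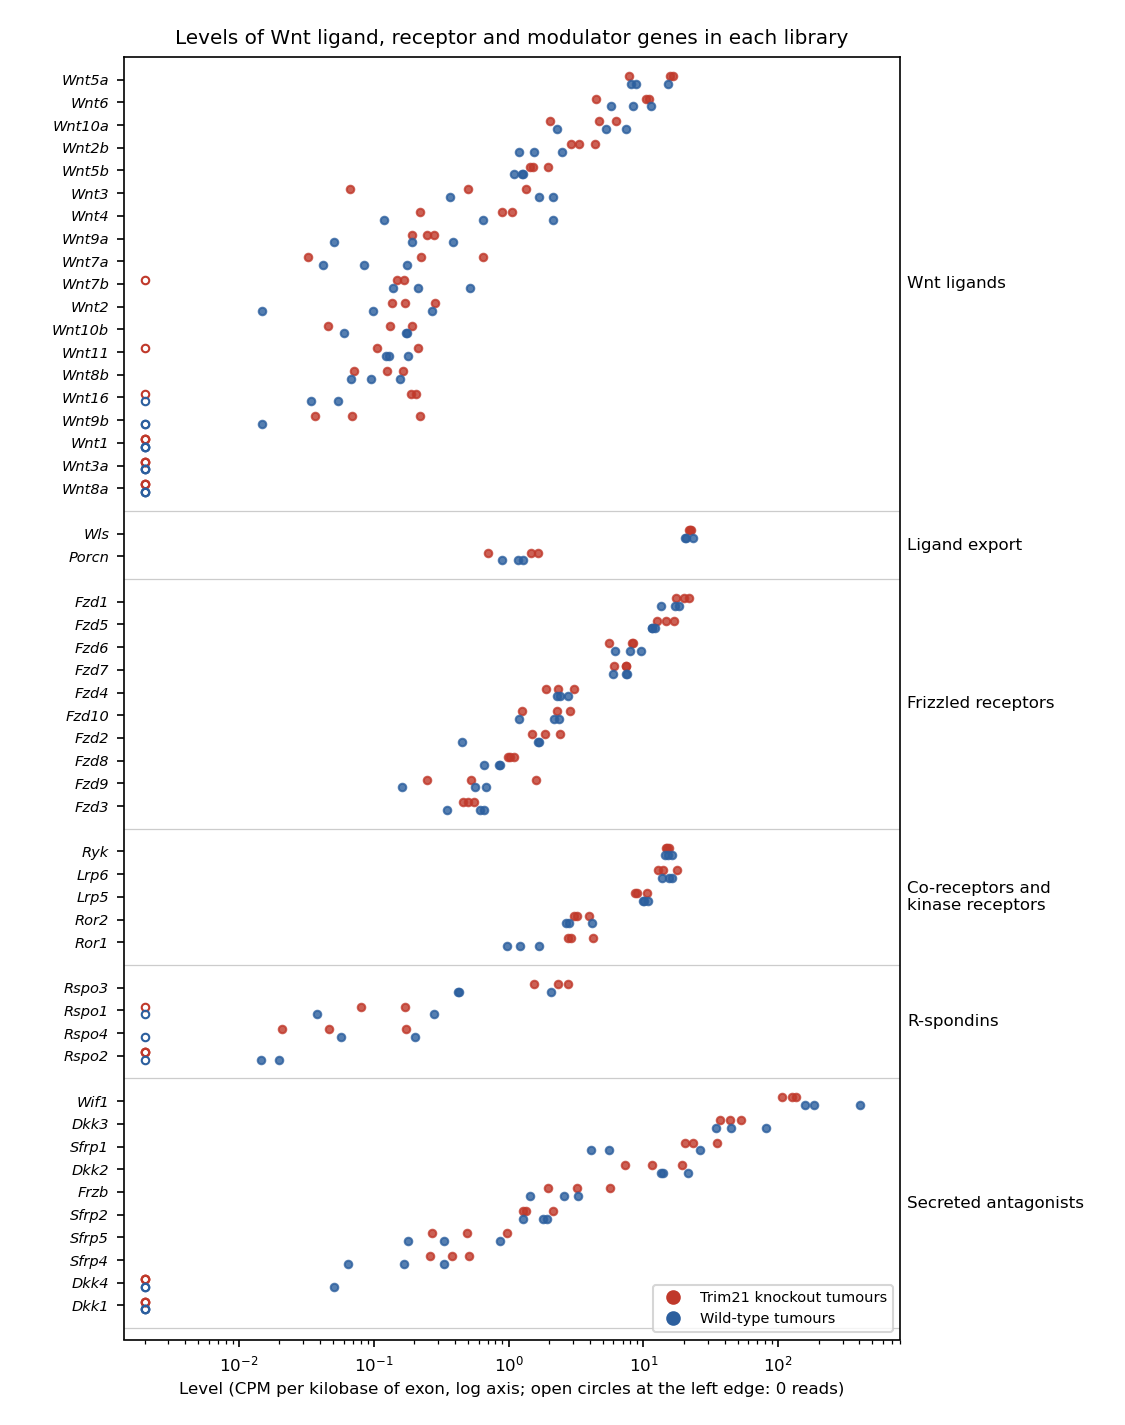
Each point is 1 library, with its level in CPM per kilobase of exon on a log axis, KO above WT for each gene, and open circles at the left edge are libraries with 0 reads. Wif1 stands highest, Dkk3, Wls, Sfrp1, Fzd1, Ryk and Lrp6 follow, and Wnt1, Wnt3a, Wnt8a and Dkk1 have no reads in any library. Fzd10os is not drawn because GENCODE M21 gives it no exon length.

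Among the 19 Wnt ligands, Wnt5a was highest per kilobase, at 12.03 CPM on average, followed by Wnt6 at 8.57 and Wnt10a at 4.65. Wnt5a, which acts mainly through Ror receptors and Ryk, measured 61.7, 123 and 129.8 CPM in KO tumours and 118, 69.0 and 63.2 CPM in WT tumours. KO replicate 1 was the lowest of the 6 libraries and WT replicate 1 stood near the other KO libraries, so the groups overlapped. Its log2 fold change was 0.33 ± 0.34 (SE; edgeR adjusted p = 0.735). Every library moved this value by more than 1.5 times when left out, from 0.14 without KO replicate 3 to 0.61 without KO replicate 1 and 0.66 without WT replicate 1. Wnt5b, its close relative, measured 3.82, 5.16 and 4.03 CPM in KO tumours and 3.32, 3.39 and 2.93 CPM in WT tumours. Here the groups did not overlap, but the difference was small (log2 fold change 0.43, standard error 0.24, adjusted p = 0.541), and it was 0.29 without KO replicate 2.

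Wnt2b, a beta-catenin-type ligand made by stromal cells of the gut, had the smallest p among the ligands. It spans bases 104945272 to 104961921 of chromosome 3 (mm10, minus strand). Its levels were 14.0, 12.3 and 18.5 CPM in KO tumours and 6.51, 10.5 and 5.005 CPM in WT tumours. All KO values lay above all WT values, with means of 14.9 ± 3.21 CPM in KO tumours and 7.34 ± 2.84 CPM in WT tumours (SD, n = 3 each). Its log2 fold change was 1.02 ± 0.30 (SE; edgeR, unadjusted p = 0.0114, adjusted p = 0.36). In every one of 13 alternative settings its unadjusted p stayed under 0.05, with log2 fold changes from 0.81 to 1.37 and adjusted p from 0.0631 to 0.723.

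Wnt6 and Wnt10a, beta-catenin-type ligands, are neighbours on chromosome 1, on the same strand with 6193 bases between them. Wnt6 measured 22.8, 24.1 and 9.77 CPM in KO tumours and 25.1, 18.5 and 12.6 CPM in WT tumours. Wnt10a measured 11.5, 15.5 and 5.02 CPM in KO tumours and 18.2, 13.0 and 5.64 CPM in WT tumours. Both genes were highest in WT replicate 1 and KO replicate 2 and lowest in WT replicate 3 and KO replicate 3, so the groups overlapped. Their log2 fold changes were 0.01 (standard error 0.38, edgeR adjusted p = 0.992) and −0.20 (standard error 0.51, adjusted p = 0.899).

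Wnt3, the ligand that Paneth cells supply to stem cells in the mouse small intestine, varied widely within each group. It had 84, 28 and 4 reads in KO tumours and 34, 153 and 176 reads in WT tumours, that is 4.17, 1.54 and 0.207 CPM in KO tumours and 1.14, 5.18 and 6.52 CPM in WT tumours. Each group held both low and high libraries (log2 fold change −1.11, standard error 0.95, edgeR adjusted p = 0.686), and the log2 fold change was −2.29 without KO replicate 1, −0.58 without KO replicate 3 and −0.68 without WT replicate 3. Wnt4 likewise spanned 0.931 to 4.45 CPM in KO tumours and 0.503 to 8.97 CPM in WT tumours. Its highest library was WT replicate 3, with 242 reads, and its lowest WT replicate 1, with 15.

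The other ligands were near or under 1 CPM. Wnt7b, Wnt9a, Wnt7a, Wnt11, Wnt10b and Wnt8b averaged 0.394 to 0.964 CPM over the 6 libraries and were tested, and the groups overlapped for each, with unadjusted p of at least 0.148. Wnt7b shares exon bases with AU022754 on the other strand, so its reads are uncertain. Wnt2, Wnt16 and Wnt9b had too few reads to be tested. Wnt9b, the neighbour of Wnt3 on chromosome 11, had 20, 3 and 6 reads in KO tumours and 2, 0 and 0 reads in WT tumours. Wnt1, Wnt3a and Wnt8a had 0 reads in every library.

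The ligand export genes were nearly level between the groups. Wls, the carrier of finished ligands, measured 192, 197 and 193 CPM in KO tumours and 183, 207 and 180.2 CPM in WT tumours. The KO values lay within the WT range (log2 fold change 0.03, standard error 0.08, edgeR adjusted p = 0.91). Porcn, the acyltransferase, was much lower per kilobase, at 1.19 against 21.8 CPM for Wls. It measured 4.36, 4.997 and 2.12 CPM in KO tumours and 3.82, 3.52 and 2.67 CPM in WT tumours, again with overlap (log2 fold change 0.20, standard error 0.37, adjusted p = 0.867).

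All 10 Frizzled receptor genes had reads in every library, with Fzd1 highest at 18.04 CPM per kilobase, Fzd5 next at 13.2, and Fzd3 lowest at 0.522. Fzd5, a receptor that Paneth cells of the mouse small intestine need to mature, spans bases 64730558 to 64737751 of chromosome 1 (mm10, minus strand). It measured 86.7, 101 and 116 CPM in KO tumours and 84.2, 80.3 and 79.7 CPM in WT tumours. The WT values were tight and all below the KO values, the lowest of which came close to them. Means were 101 ± 14.7 CPM in KO tumours and 81.4 ± 2.47 CPM in WT tumours (SD, n = 3 each). The log2 fold change was 0.32 ± 0.12 (SE; edgeR, unadjusted p = 0.0322, adjusted p = 0.428). It was 0.21 without KO replicate 3 (unadjusted p = 0.104), and the p was also above 0.05 without KO replicate 2 (0.0798), WT replicate 2 (0.0833) or WT replicate 3 (0.0788). Fzd5 shares exon bases with Gm38058 on the other strand, and the strand setting of the counts was not given in the sources used here.

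Fzd8 also separated the groups, with 5.95, 6.10 and 6.52 CPM in KO tumours and 3.92, 5.18 and 5.12 CPM in WT tumours. The gap was smaller than the WT range, and the log2 fold change was 0.38 ± 0.21 (SE; edgeR adjusted p = 0.536). Fzd1 measured 73.3, 84.3 and 90.8 CPM in KO tumours and 57.0, 76.7 and 72.3 CPM in WT tumours, with overlap (log2 fold change 0.27, standard error 0.14, adjusted p = 0.527), and 0.15 without WT replicate 1. Fzd7, a receptor of intestinal stem cells in the mouse, measured 27.6 to 33.6 CPM in KO tumours and 27.2 to 34.4 CPM in WT tumours, the same range within 1 CPM. Fzd6 measured 26.8 to 46.6 CPM and Fzd4 12.8 to 20.4 CPM over all libraries. Fzd3, Fzd10 and Fzd2 lay between 1.64 and 9.23 CPM and Fzd9 between 0.369 and 3.67 CPM, with overlap in each. The name pattern also took in Fzd10os, a noncoding RNA annotated beside Fzd10 and no receptor, which had 15 to 39 reads per library and overlapping groups. Over the 11 genes of this family, 7 log2 fold changes were positive, with a median of 0.27.

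**Figure D3:**
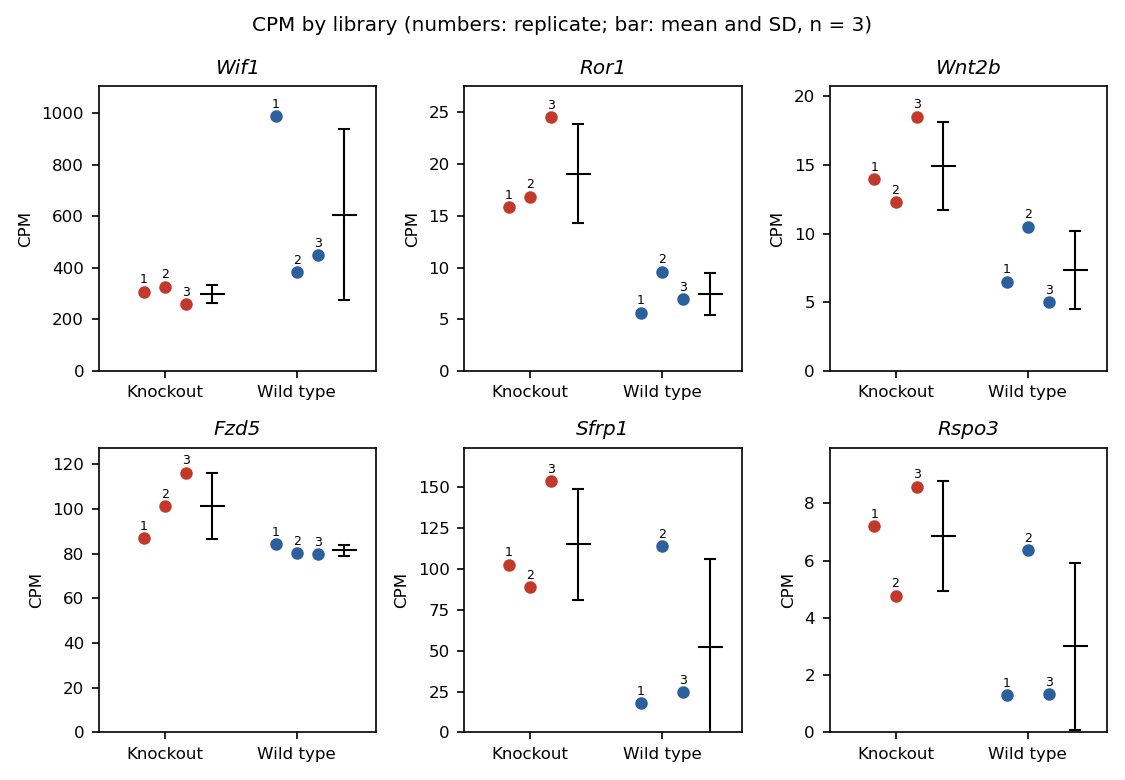
CPM of Wif1, Ror1, Wnt2b, Fzd5, Sfrp1 and Rspo3 in each library, numbered by replicate, with KO on the left of each panel and the mean and SD of 3 libraries as the bar. The 3 KO points of Wif1 lie below the WT points and those of Ror1, Wnt2b and Fzd5 above them, while WT replicate 2 of Sfrp1 and Rspo3 lies among the KO points. The lower SD bound of Sfrp1 in WT tumours falls below the axis.

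Ror1 showed the smallest p of all members. It encodes a receptor with a tyrosine kinase-like domain that binds Wnt5a, and it spans bases 100095791 to 100444765 of chromosome 4 (mm10, plus strand). Ror1 measured 15.8, 16.9 and 24.6 CPM in KO tumours and 5.64, 9.61 and 6.97 CPM in WT tumours. Even the lowest KO tumour stood clear of the highest WT tumour. Means were 19.1 ± 4.78 CPM in KO tumours and 7.41 ± 2.03 CPM in WT tumours (SD, n = 3 each), a 2.57-fold higher level. The log2 fold change was 1.36 ± 0.26 (SE; edgeR, unadjusted p = 0.00117, adjusted p = 0.322), and DESeq2 gave 1.37 with an adjusted p of 0.000562. In 13 of 13 alternative settings the unadjusted p was under 0.05, with log2 fold changes from 1.14 to 1.598 and adjusted p from 0.000562 to 0.723.

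The other receptors of this class had overlapping groups. Ror2, the paralogue of Ror1, measured 16.7, 13.7 and 12.9 CPM in KO tumours and 11.4, 17.7 and 11.8 CPM in WT tumours, with overlap (log2 fold change 0.08, standard error 0.22, edgeR adjusted p = 0.905), and the value turned negative without KO replicate 1, WT replicate 1 or WT replicate 3 (−0.035 at the lowest). Whether the difference in Ror1 exceeds that in Ror2 was not tested. Ryk measured 69.6, 67.9 and 66.5 CPM in KO tumours and 73.7, 69.4 and 65.2 CPM in WT tumours, and its log2 fold change was −0.03 ± 0.09 (SE; adjusted p = 0.918). Lrp6 measured 175, 192 and 244 CPM in KO tumours and 211, 221 and 188 CPM in WT tumours (log2 fold change −0.03, standard error 0.14, adjusted p = 0.956). Lrp5 measured 85.1 to 103 CPM in KO tumours and 97.4 to 106 CPM in WT tumours. Ryk and Lrp6 stood at 15.2 and 15.0 CPM per kilobase, near the level of Fzd5.

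Of the 4 R-spondins, Rspo3 was the only one with enough reads to be tested. It measured 7.19, 4.78 and 8.58 CPM in KO tumours and 1.31, 6.36 and 1.33 CPM in WT tumours. As for Sfrp1, WT replicate 2 lay among the KO tumours and the other WT libraries lay well below. Its log2 fold change was 1.19 ± 0.64 (SE; edgeR adjusted p = 0.532). It was 2.37 without WT replicate 2 (unadjusted p = 0.00052, adjusted p = 0.15), but 0.83 without WT replicate 1 (unadjusted p = 0.228) and 0.83 without WT replicate 3 (unadjusted p = 0.237). Rspo1, second per kilobase, had 0, 6 and 3 reads in KO tumours and 0, 16 and 2 reads in WT tumours. Rspo4 had 0 to 13 reads per library, and Rspo2 had 5 reads in all, 3 in WT replicate 1 and 2 in WT replicate 3.

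Several members ordered the libraries in ways that crossed the groups, and genes known from particular gut cells did the same. These sets were picked after their values had been seen, so they are descriptions of 6 libraries with no test. Grem1, a BMP antagonist of stromal cells below the crypt, measured 66.9, 89.9 and 162 CPM in KO tumours and 34.1, 117 and 21.2 CPM in WT tumours. It thus shared with Sfrp1 and Rspo3 the peak in KO replicate 3 and the low values in WT replicates 1 and 3. Bmp5, a stromal BMP ligand, measured 75.8, 119.8 and 119.5 CPM in KO tumours and 81.7, 59.5 and 54.0 CPM in WT tumours. Pdgfra, a fibroblast receptor gene, measured 186, 234 and 239 CPM in KO tumours and 217, 168 and 125 CPM in WT tumours. Like Wnt5a, both were highest in KO replicates 2 and 3 and in WT replicate 1. Lyz1, the lysozyme of Paneth cells, measured 1635, 900.4 and 265 CPM in KO tumours and 655, 1636 and 1973 CPM in WT tumours. It placed the 6 libraries in the same order as Wnt3, with KO replicate 1 and WT replicate 2 nearly level in Lyz1. The summed Paneth cell markers did not keep this order, with WT replicate 1 (1573 CPM) above KO replicate 2 (1374 CPM).

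**Figure D4:**
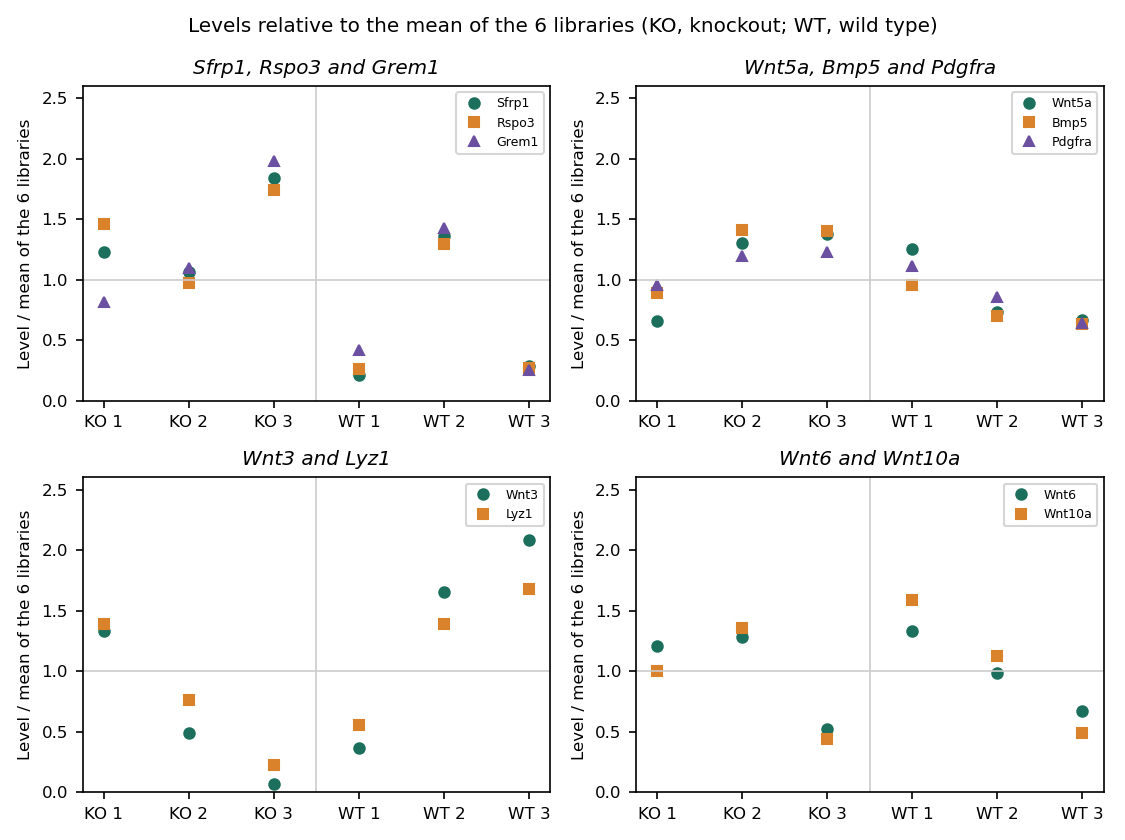
Each panel plots the CPM of 2 or 3 genes in the 6 libraries, KO on the left, divided by the gene's mean over these libraries. Sfrp1, Rspo3 and Grem1 are low together in WT replicates 1 and 3, Wnt5a, Bmp5 and Pdgfra are high together in KO replicates 2 and 3 and WT replicate 1, Wnt3 follows Lyz1, and Wnt6 follows Wnt10a.

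Markers of cells known to make some of these transcripts varied between the libraries, read against 6.63% of all genes higher and 4.12% lower at an unadjusted p under 0.05. All 12 smooth muscle markers had positive log2 fold changes, 8 with an unadjusted p under 0.05, and summed to 1011 to 1619 CPM in KO tumours and 378 to 913 CPM in WT tumours. All 12 fibroblast markers were positive, 4 with an unadjusted p under 0.05, at 1756 to 2469 CPM in KO tumours and 1194 to 1810.0 CPM in WT tumours. The subepithelial fibroblast list had 5 of 7 positive and 2 higher at that p, at 513 to 687 CPM in KO tumours and 386 to 638 CPM in WT tumours. In that list every KO value lay above every WT value for 1 gene and below for 1 gene. The list of trophocyte and adventitial markers had 5 of 6 positive and 2 higher, at 376 to 603 CPM in KO tumours and 297 to 461 CPM in WT tumours. All 8 Paneth cell markers were negative, 4 with an unadjusted p under 0.05, at 558 to 2468 CPM in KO tumours and 1573 to 3364 CPM in WT tumours. No gene of these 5 lists was at 0 in all libraries, and no marker passed the adjusted threshold. The part of cell content in the values of Ror1, Wnt2b, Sfrp1, Rspo3, Wnt5a and Wnt3 was not tested.

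The epithelial list had 7 of 10 positive and 0 at an unadjusted p under 0.05, at 7116 to 7316 CPM in KO tumours and 6653 to 7364 CPM in WT tumours. Mature colonocyte markers had 8 of 10 positive and 6 higher at that p. Their sums overlapped, at 1420.0 to 1626 CPM in KO tumours and 1206 to 1493 CPM in WT tumours. The mean of their log2 levels did not, at 6.36 to 6.79 in KO tumours and 4.51 to 5.68 in WT tumours. For 6 of these genes every KO value lay above every WT value, and for 0 below. Their median log2 fold change was 1.503, against 0.954 for smooth muscle markers and −1.294 for Paneth cell markers. Macrophage markers had 7 of 8 positive and 5 higher, endothelial markers 7 of 8 and 3 higher, and enteric neuron and glia markers 7 of 8 and 1 higher.

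Genes that act on the same pathway outside these families were mostly lower in value in KO tumours, without passing the test. Of 24 other surface and secreted regulators, 21 were tested, 15 had negative log2 fold changes, and 0 passed edgeR's adjusted threshold. The median was −0.28, against −0.01 over all genes tested. At an unadjusted p under 0.05, 3 were lower and 0 higher, where 4.12% of all genes were lower and 6.63% higher. Tspan12, a partner of Fzd4, had −0.46, and the ligases Znrf3 and Rnf43 that R-spondins counter had −0.53 and −0.45, while the polarity gene Prickle1 had 0.35. Of 32 genes of the intracellular pathway, 23 were negative, the median was −0.14, and 0 passed. Unadjusted, 3 were higher and 3 lower. The first 4 by p were the co-repressor genes Tle1 (log2 fold change −0.51) and Tle2 (0.70), the feedback inhibitor Nkd2 (1.33) and the repressor-type Tcf gene Tcf7l1 (0.95). Tcf7l1 measured 30.9, 27.5 and 36.4 CPM in KO tumours and 8.75, 24.3 and 15.9 CPM in WT tumours, with the groups apart. The gene for beta-catenin, Ctnnb1, chosen after its values were seen, measured 1241, 1267 and 1122 CPM in KO tumours and 1535, 1294 and 1367 CPM in WT tumours, every WT value being higher (log2 fold change −0.21, adjusted p = 0.522).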

How the data were processed

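RNA-seq of ribosome-depleted total RNA measured 6 tumour samples, 3 per genotype. The deposited files hold whole-number read counts per gene symbol, not normalized. The submitters' processing notes name mm10, TopHat2, edgeR and limma, without versions or roles. No source used here gives the read counter or its strand setting. Counts were tested in R 4.3.3 with edgeR 4.0.16 (quasi-likelihood, group only, TMM scaling, filterByExpr, Benjamini-Hochberg over all tested genes, threshold 0.05, two-sided). CPM uses TMM-scaled totals. CPM per kilobase uses the union of exons in GENCODE M21 (GRCm38). GENCODE gave a length for 50 of the 51 members. Standard errors are the fold change divided by the square root of F.

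Members described in full were those with an unadjusted p under 0.05, those with at least 1 CPM and groups that did not overlap, and the 2 highest per kilobase in each role. Per list of other pathway genes, the 4 smallest p were named. Members, lists and tests were chosen with earlier results of these data known. Alternatives were DESeq2 1.42.0, limma-voom (limma 3.58.1), 2 scalings, 2 filters, leaving out single libraries, and a block for the replicate number. The fits were tested on data simulated once, from the spread that edgeR estimated for each gene. There, a larger share of DESeq2's calls than of edgeR's or limma-voom's was false. DESeq2 also recovered a larger share of the genes given small fold changes than the other tools did. Because the simulated spread came from edgeR, this cannot decide which tool's calls are right in the real libraries. Precision at low counts is limited by counting error. Exons of 7 members (Fzd5, Fzd6, Rspo3, Sfrp2, Wnt5a, Wnt7b and Wnt11) overlap another gene on the other strand, so their reads are less certain.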

Additional observations from a re-analysis of the deposited data

How the results depend on the processing

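No member was called by edgeR at an adjusted p under 0.05, nor with either other scaling, either other filter or limma-voom. DESeq2 called 336 genes, 242 higher and 94 lower, and 2 members. Unadjusted, limma-voom placed 5 members higher against 3 in edgeR. Leaving out single libraries gave 0 to 1 genes called, 0 members called, 2 to 5 members higher and 0 to 2 lower at an unadjusted p under 0.05, and a member median of 0.08 to 0.16. The 5 came without WT replicate 2, the 0 lower without KO replicate 1 or 3 and the 2 lower without KO replicate 2.

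The direction turned for 21 of the 40 tested members when 1 library was left out, 0 of them with an unadjusted p under 0.05, and the cause was not tested. Among the members described in full, leaving out single libraries put Dkk3 between −0.49 and 0.17, Lrp6 between −0.177 and 0.0799, Porcn between −0.045 and 0.48, Ryk between −0.0746 and 0.0147, Wls between −0.0082 and 0.0949, Ror2 between −0.035 and 0.314, Wnt6 between −0.21 and 0.32 and Wnt10a between −0.573 and 0.197. The others were Fzd3, Fzd4, Fzd6, Fzd7, Fzd9, Fzd10, Sfrp2, Sfrp5, Wnt4, Wnt8b, Wnt9a, Wnt10b and Wnt11, with Wnt4 the widest at −0.94 to 0.91. With limma-voom Wnt6 was −0.054 and Wnt4 0.15. With the replicate block, chosen as an alternative because both groups carry replicate numbers 1 to 3, Wnt6 was −0.038, Wnt4 was 0.24, 0 genes and 0 members were called, and 2 members were higher and 1 lower at an unadjusted p under 0.05. Deviations of same-numbered libraries correlated at −0.147, −0.175 and −0.0734, and those of differently numbered libraries at −0.092 to 0.227. With only 3 libraries per group, these values cannot decide whether the numbers pair the samples.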
